A study of Mus musculus with 8 samples.

Results

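The sites described here are 31802 CTCF peaks that were weak in wild-type (WT) mouse embryonic stem cells, were found again in the tagged line C59, and carried no Smc3 peak in either line. They were chosen from the WT CTCF peak list as peaks on the 19 numbered autosomes with a pileup below 100, where pileup is the authors' count of extended reads over the peak summit. Each had to overlap a C59 CTCF peak by at least 1 bp and no peak of the C59 or WT Smc3 list. They made up 32.2% of the 98759 WT CTCF peaks and 33.0% of the 96324 on numbered autosomes. The WT pileup and the presence or absence of the other 3 lists chose the sites, so every value of those is a description here and supports nothing.

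Chromatin immunoprecipitation and sequencing (ChIP-seq) was done in JM8.N4 embryonic stem cells, grown without feeders on gelatin in serum and LIF. C59 is a single clone, with both Ctcf alleles tagged as FLAG-Halo-CTCF and both Rad21 alleles as Rad21-SNAPf-V5. WT cells of the same line carry neither tag. Each line gave 1 CTCF and 1 Smc3 library, with the same antibodies in both lines, and 1 input and 1 control IgG library, which were not analysed here. With 1 library per line and protein there is no replicate, no standard deviation and no test between the lines or between sets of peaks. Shares carry 95% intervals by the exact Clopper-Pearson method, which describe counting error alone.

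CTCF is a zinc finger protein that reads a long DNA motif and is best known as the boundary and insulator protein of vertebrate genomes. Cohesin, the ring complex of Smc1a, Smc3 and Rad21, extrudes chromatin loops and comes to rest at sites where CTCF is bound. CTCF also binds gene promoters, and places with CTCF and no detectable cohesin are known from many cell types. Absence from an Smc3 list means that Smc3 was below the authors' threshold there.

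Sequence at these sites could be read where a summit fell in a RefSeq promoter window, from 250 bases before to 50 bases after an annotated gene start. The windows of the 3 sites of highest WT fold enrichment, the authors' ratio of pileup to local background, are shown to let the promoters at the top of the set be compared. Capitals mark matches to a 12-base core of the CTCF motif (CC, any 3 bases, AG, any 2 bases and GGC), searched on both strands. The first window, of the apolipoprotein L gene Apol7a, holds 1 match. The second, of the serotonin receptor gene Htr7, and the third, of the histone chaperone gene Asf1a, hold 0.
Apol7a, GRCm38.p6 chr15:77399061-77399360, minus strand: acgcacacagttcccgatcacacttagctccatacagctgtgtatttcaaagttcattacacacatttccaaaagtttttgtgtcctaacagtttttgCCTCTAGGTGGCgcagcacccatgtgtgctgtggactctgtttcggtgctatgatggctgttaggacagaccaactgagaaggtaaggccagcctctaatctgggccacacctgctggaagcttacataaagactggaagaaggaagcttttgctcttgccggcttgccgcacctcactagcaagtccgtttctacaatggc
Htr7, GRCm38.p6 chr19:36057311-36057610, minus strand: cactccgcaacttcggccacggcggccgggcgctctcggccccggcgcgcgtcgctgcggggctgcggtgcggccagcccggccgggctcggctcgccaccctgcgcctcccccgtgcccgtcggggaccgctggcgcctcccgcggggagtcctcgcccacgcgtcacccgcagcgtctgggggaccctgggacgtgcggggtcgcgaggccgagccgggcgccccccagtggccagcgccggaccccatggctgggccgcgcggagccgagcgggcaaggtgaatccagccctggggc
Asf1a, GRCm38.p6 chr10:53596711-53597010, plus strand: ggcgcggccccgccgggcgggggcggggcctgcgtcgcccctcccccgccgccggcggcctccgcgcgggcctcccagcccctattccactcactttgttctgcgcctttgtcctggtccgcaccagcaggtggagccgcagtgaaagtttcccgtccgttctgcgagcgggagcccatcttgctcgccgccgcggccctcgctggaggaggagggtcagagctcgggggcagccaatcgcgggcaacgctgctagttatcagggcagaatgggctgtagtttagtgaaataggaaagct

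Stretches around the core are shown for the 8 windows of highest WT fold with a core within 50 bp of the summit and 10 bases of the window on either side of it. This choice was made after the values were seen. Each stretch is turned so that the core reads in the direction given above, and capitals mark its 12 bases.
Apol7a, chr15:77399241-77399272, minus strand: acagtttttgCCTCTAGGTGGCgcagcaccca
Tmem132e, chr11:82388783-82388814, plus strand: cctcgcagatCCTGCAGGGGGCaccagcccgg
Coro2b, chr9:62537085-62537116, minus strand: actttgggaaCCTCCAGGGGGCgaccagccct
Uap1, chr1:170175135-170175166, minus strand: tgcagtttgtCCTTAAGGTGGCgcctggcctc
Abcg8, chr17:84676294-84676325, plus strand: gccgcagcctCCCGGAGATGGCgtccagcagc
Kctd8, chr5:69341706-69341737, plus strand: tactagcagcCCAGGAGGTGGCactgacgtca
Scaf11, chr15:96460979-96461010, plus strand: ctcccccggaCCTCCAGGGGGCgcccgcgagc
Dok7, chr5:35056694-35056725, minus strand: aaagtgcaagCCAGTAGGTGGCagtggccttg
The closest cores, at Scaf11 and Dok7, had their centre 0.5 bp from the WT summit, and the farthest, at Apol7a, 38.5 bp from it. Folds of these 8 sites ran from 8.01 at Kctd8 to 15.8 at Apol7a in C59, and from 14.2 at Dok7 to 18.8 at Apol7a in WT.

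The lists held 82227 CTCF and 25734 Smc3 peaks in C59, and 98759 CTCF and 47281 Smc3 peaks in WT, with q-values up to 0.0374, 0.0490, 0.0495 and 0.0474 in that order. No list gives a read total, so the depth of the libraries is unknown from these files. Pileups of the C59 lists stand on another scale than those of WT, so pileups and folds are used within a list and set side by side without a ratio.

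Smc3 was absent from most weak CTCF sites that both lines shared, and its absence became rarer with every step in CTCF pileup. Of the 96324 autosomal WT CTCF peaks, 65.3% had a pileup below 100. A C59 CTCF peak overlapped 69.2% of those (68.8 to 69.5), against 79.9% of all autosomal WT CTCF peaks. Of the 43486 weak peaks found in C59, 73.1% (72.7 to 73.5) had no Smc3 in either line and are the sites described here. Of the rest, 9585 had Smc3 in WT alone, 1968 in both lines and 131 in C59 alone. By pileup, sites without Smc3 made up 97.8% of shared peaks from 13 to 19, 90.6% from 30 to 39, 70.4% from 50 to 59 and 34.1% from 90 to 99. Above the threshold the share was 22.5% from 100 to 129 and 6.05% from 130 up.

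**Figure D1:**
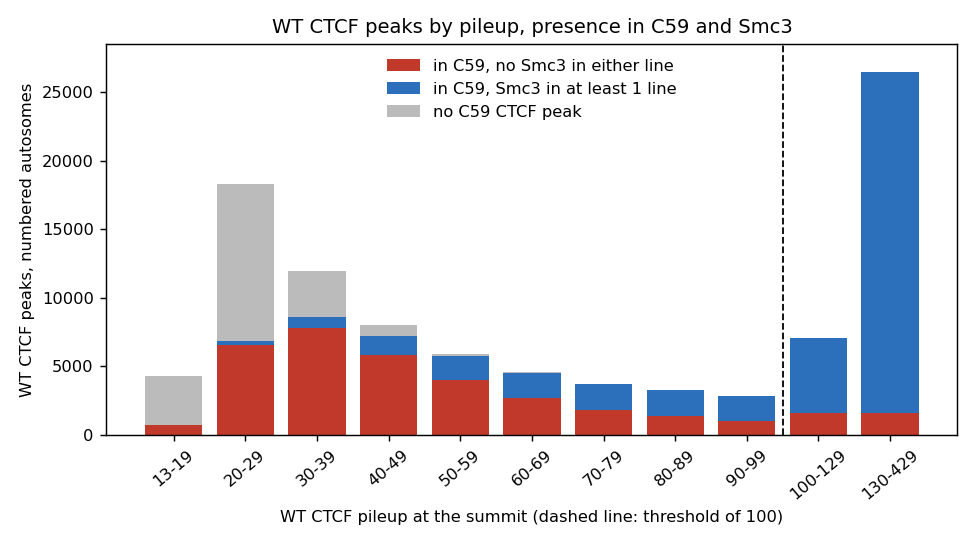
Numbers of autosomal WT CTCF peaks (y axis) by pileup at the summit (x axis), split into peaks found in C59 without Smc3, peaks found in C59 with Smc3 in at least 1 line, and peaks with no C59 CTCF peak. The sites described here are the red parts left of the dashed line at 100, most numerous from 30 to 39 with 7796 peaks.

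Within the set, sites spanned the whole range of weak occupancy. Their WT pileup had a median of 41 and quartiles of 30 and 56, and their WT fold a median of 6.76, from 2.1 to 19.0. Peaks were short, with a median length of 389 bp in C59 and 455 bp in WT. The 3181 shared peaks without Smc3 at or above the threshold had a median WT pileup of 130 and fold of 19.0, and a median length of 674 bp in C59 and 768 bp in WT. At the threshold itself, the 79 sites at a pileup of 99 had a median fold of 13.3 in C59 and 15.5 in WT. The 62 peaks at a pileup of 100 that otherwise met the rule had medians of 14.0 in C59 and 15.0 in WT. Named examples just inside are Cdh10, Ltbp1 and Lox, with folds of 14.0, 13.1 and 14.3 in C59 and 19.0 in WT for each. Just outside are Prrx1, Adamts16 and Dlgap1, with folds of 19.9, 14.8 and 12.7 in C59 and 19.2 in WT for each. The folds run on across the threshold without a gap. A protein-coding gene began or ended within 1 kb at 15.2% of the 79 sites and 8.06% of the 62 peaks, which are small counts.

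Within the set, sites that were stronger in WT tended to be stronger in C59. C59 fold had a median of 5.91, with quartiles of 4.64 and 8.35. The C59 summit lay inside the WT peak at 98.9% of sites (98.8 to 99), and the summits of the lines stood a median of 26 bp apart, within 50 bp at 74.6% (74.1 to 75). For the 3181 stronger peaks without Smc3 the share within 50 bp was 96.5% (95.8 to 97.1). Across the 31463 sites with the C59 summit inside the WT peak, Spearman's rho of C59 fold on WT fold was 0.69, and that of pileup 0.75. Over all 31802 sites the coefficients were 0.68 for fold and 0.74 for pileup. These coefficients describe sites that share the same 2 libraries, were limited to weak pileups and had to have a C59 peak. They carry no p. The median C59 fold was 4.33 in the lowest decile of WT fold, 5.50 in the fifth and 12.1 in the highest. The C59 median rose with every decile, while the quartiles, which show the spread of single sites, overlapped between all neighbouring deciles.

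**Figure D2:**
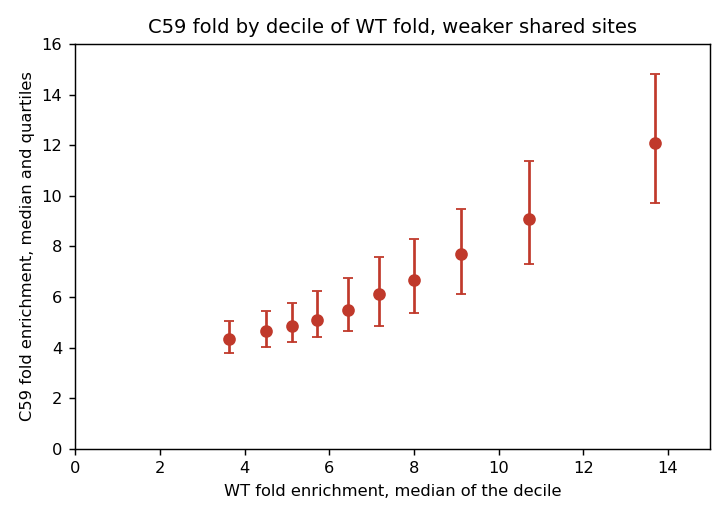
C59 fold enrichment (y axis, median with lower and upper quartile) in 10 deciles of WT fold enrichment (x axis, median of the decile) over 31463 weaker shared sites whose C59 summit lies inside the WT peak. The C59 medians climb from 4.33 to 12.1 from the lowest to the highest WT decile, with overlapping quartiles between neighbours.

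At 339 sites (1.07%) the C59 summit lay outside the WT peak, and their values stood apart. Of the 339, 223 were overlapped by a C59 peak that also spanned at least 1 other WT CTCF peak, and the C59 peak of 133 itself overlapped Smc3. Their median C59 fold was 7.70 although their median WT fold was only 3.99, and their C59 peaks were wide, with a median of 827 bp against a WT median of 348 bp. The 5 highest C59 folds of the whole set all came from this group. They stood nearest to Ccdc188 (53.7 in C59 and 4.18 in WT), Eml2 (51.2 and 3.51), Crtac1 (49.4 and 6.41), Socs7 (49.3 and 11.4) and Cdkn2aip (48.7 and 8.47), with C59 peaks of 1461 to 2542 bp. An Smc3 summit lay 620 to 1022 bp from each. Among sites with the C59 summit inside, the highest C59 folds were 31.8 nearest to Kcnb2, a potassium channel gene, against 18.1 in WT, and 30.4 nearest to Eml1, against 16.1 in WT. These 2 were named after their values were seen.

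Weaker shared sites without Smc3 lay at gene ends a little less often than CTCF peaks in general, a total that includes them. Of them, 8.89% had their summit no more than 1 kb from where a protein-coding gene begins or ends (8.58 to 9.20), against 9.43% of all autosomal WT CTCF peaks. A further 51.0% lay elsewhere inside protein-coding genes and 40.1% outside them. Both shares lay within the range of the other sets. Those ran from 38.3% to 51.9% inside genes and from 29.9% to 48.9% outside them. The shares at gene ends were 18.2% (16.9 to 19.6) for the stronger shared peaks without Smc3, 7.10% (6.64 to 7.58) for weak shared peaks with Smc3, and 9.70% (9.27 to 10.1) for weak WT-only peaks without Smc3. For strong shared peaks with Smc3 the share at gene ends was 9.60% (9.27 to 9.93). Weak shared peaks with Smc3 lay outside genes more often, at 48.9% (48.0 to 49.8). Within the set, the share outside genes was 44.1% (42.9 to 45.3) at pileups from 20 to 29 and 32.1% (29.2 to 35.1) from 90 to 99.

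At annotated starts, sites with and without Smc3 parted as pileup rose. Starts came from the RefSeq promoter windows, which cover 18 of the 19 autosomes here and not every gene. A protein-coding start lay within 1 kb of 6.28% of the weaker shared sites without Smc3 (6.01 to 6.55), against 6.16% of all WT CTCF peaks on those autosomes. From a pileup of 30 to 39 the shares were 5.80% without Smc3 (5.28 to 6.35) and 5.50% with it (4.01 to 7.34), with overlapping intervals. From 50 to 59 they were 6.32% (5.57 to 7.12) and 3.69% (2.83 to 4.72), and from 90 to 99 they were 8.78% (7.06 to 10.8) and 4.43% (3.53 to 5.48). The share without Smc3 went on to 17.8% (15.9 to 19.8) at pileups of 130 and more, where that with Smc3 was 5.53% (5.24 to 5.83). From 20 to 29 the order was the other way, at 5.88% without Smc3 (5.31 to 6.48) and 8.75% of 297 peaks with it (5.80 to 12.6), and the intervals overlapped.

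**Figure D3:**
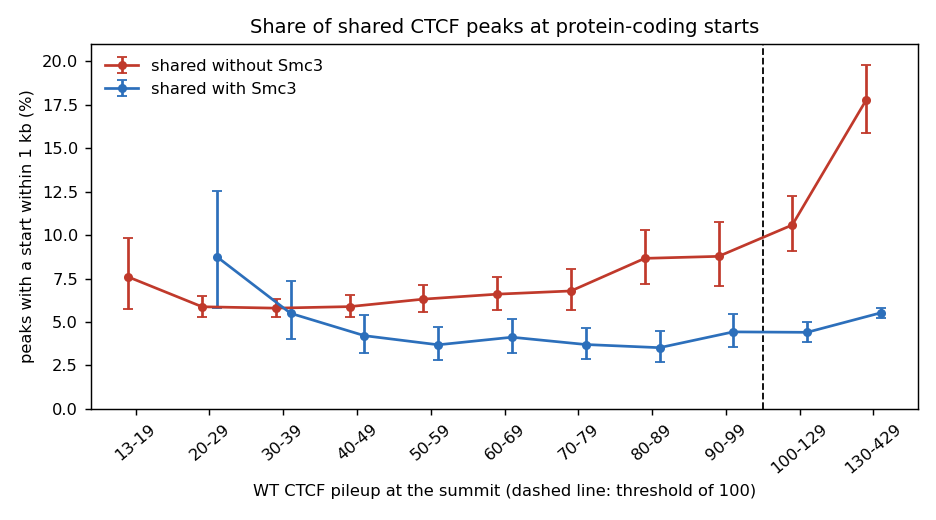
Share of shared CTCF peaks with a protein-coding start within 1 kb (y axis, percent with exact 95% intervals) by WT pileup (x axis), for peaks without and with Smc3. Bins with under 100 peaks are not drawn. Without Smc3 the share is 5.80% from 30 to 39, 8.78% from 90 to 99 and 17.8% from 130 up, while with Smc3 it stays between 3.52% and 5.53% from 40 up.

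Summits within 1 kb of a start were spread differently around it at weaker and stronger shared sites without Smc3. Of the 1940 weaker shared sites within 1 kb of a start, 14.6% (13 to 16.2) had their summit in the 200 bp before it and 18.1% (16.4 to 19.9) in the 200 bp that begin at it. For the 438 stronger peaks without Smc3 the shares were 38.6% (34.0 to 43.3) before the start and 12.1% (9.20 to 15.5) after it. Strong shared peaks with Smc3 also had more summits before the start, with 32.3% (30.0 to 34.7) before it and 6.90% (5.70 to 8.27) after it. For weak shared peaks with Smc3 the shares were 17.1% (13.8 to 20.7) before it and 13.9% (10.9 to 17.3) after it, with intervals that overlapped each other and those of the weaker shared sites. For weak WT-only peaks without Smc3 the shares were 14.5% (12.6 to 16.6) before it and 18.9% (16.8 to 21.2) after it, with intervals that overlapped those of the weaker shared sites. Within the set, the share before the start was 14.1% (11.9 to 16.6) at pileups up to 39 and 19.1% (15.0 to 23.9) from 70 to 99, with overlapping intervals.

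**Figure D4:**
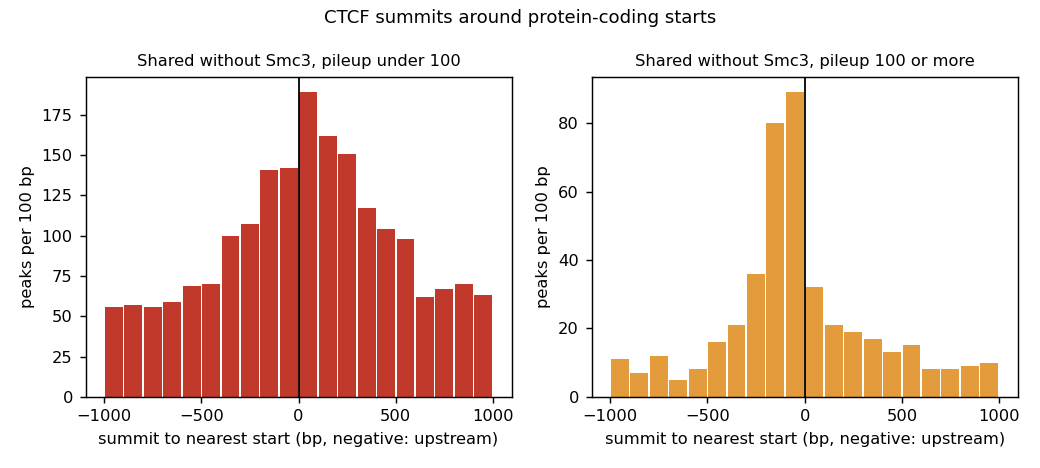
Numbers of CTCF summits per 100 bp (y axis) by distance to the nearest protein-coding start (x axis, bp, negative upstream), for shared peaks without Smc3 of pileup under 100 (left) and of 100 or more (right). The left panel is highest in the 100 bp that begin at the start, with 189 summits, and the right panel in the 100 bp before it, with 89.

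Promoters with a CTCF summit of any set had more G and C than all promoter windows, and the share with the CTCF core at weaker shared sites lay within the range of the other sets. A summit fell in 481 windows of 455 protein-coding genes, from 447 sites. The median GC content of these windows was 64.0%, against 57.0% for all 20085 autosomal windows. It was 62.7% for windows of stronger peaks without Smc3, 60.2% for weak shared peaks with Smc3, 63.7% for weak WT-only peaks without Smc3 and 61.0% for strong peaks with Smc3. The core was found in 23.3% of them (19.6 to 27.3), against 10.1% of all autosomal windows and 7.84% (7.45 to 8.24) of windows with no WT CTCF summit. The share was 31.6% (25.6 to 38.0) at stronger peaks without Smc3, 27.5% (19.7 to 36.4) at weak shared peaks with Smc3, 19.4% (15.0 to 24.4) at weak WT-only peaks without Smc3 and 47.6% (43.8 to 51.5) at strong peaks with Smc3. Of these, the interval of strong peaks with Smc3 alone lay clear of that of the weaker shared sites. In each of 4 ranges of GC content the share at weaker shared sites was above that of windows with no summit. From 60% to 70% GC it was 23.7% (18.3 to 29.8) against 11.3% (10.4 to 12.3), and below 50% GC it was 29.6% of 27 windows (13.8 to 50.2) against 2.34% (1.95 to 2.77).

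Most of the promoters with a weaker shared site thus held no core in the window, and for most of those that did it lay near the summit. A core had its centre within 50 bp of the summit in 14.1% of windows (11.1 to 17.6). For the other sets that share was 22.8% (17.5 to 28.8) at stronger peaks without Smc3, 38.8% (35.1 to 42.7) at strong peaks with Smc3, and 18.3% (11.9 to 26.4) at weak shared peaks with Smc3. It was 7.14% (4.48 to 10.7) at weak WT-only peaks without Smc3 and 7.69% of 39 windows (1.62 to 20.9) at weak WT-only peaks with Smc3. For this core, the intervals of strong peaks with Smc3 and of weak WT-only peaks without Smc3 did not overlap that of the weaker shared sites. The difference from weak WT-only peaks without Smc3 did not hold for 2 other forms. With G as the base after AG, the shares were 8.52% (6.19 to 11.4) at weaker shared sites and 4.42% (2.38 to 7.44) at those peaks, with overlapping intervals. For AGGNGGC alone, where N is any base, they were 23.1% (19.4 to 27.1) and 24.5% (19.7 to 29.8). Among the weaker shared sites the share with the 12-base core near the summit was 11.7% (7.61 to 16.8) at pileups up to 39. It was 16.1% (9.32 to 25.2) from 70 to 99. A match is a description of the letters, and windows without one may hold other forms of the motif.

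The 12 protein-coding genes whose promoter window held the sites of highest WT fold began with Apol7a and Htr7. At Apol7a the site had a pileup of 71.1 in C59 and 98 in WT, and folds of 15.8 and 18.8. At Htr7 the pileups were 57.7 in C59 and 98 in WT, with folds of 12.9 and 18.8. Asf1a had folds of 15.0 in C59 and 18.4 in WT. One site stood in the windows of both Tprkb, whose product belongs to the KEOPS complex of tRNA modification, and Nat8f1, an acetyltransferase gene, with folds of 17.3 in C59 and 18.4 in WT. The core was present in the Tprkb window, more than 50 bp from the summit.

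Among the rest of the 12, Cdkn2a, the locus of cell cycle inhibitors, had the lowest C59 value, with a pileup of 40.4 and a fold of 9.07, against 97 and 18.3 in WT. Rdh14, a retinol dehydrogenase gene, had folds of 18.1 in C59 and 18.2 in WT, and Map3k20, a stress kinase gene, 12.0 and 18. Nup210, a nuclear pore gene, had 14.8 in C59 and 17.7 in WT, and Pou6f1, a POU transcription factor gene, 19.2 and 17.3. Fam102b had 13.7 in C59 and 17.3 in WT, and Insyn2a, an inhibitory synapse gene, 13.1 and 17.1. Smc3 summits nearest to these sites lay between 1943 bp away at Fam102b and 47406 bp away at Rdh14.

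The rule kept every site off the Smc3 peaks, so its distance to them is a description. The nearest Smc3 summit of either line was a median of 10911.5 bp away, within 5 kb at 28.2% (27.7 to 28.7) and within 50 kb at 88.3% (88.0 to 88.7). Taken by line, the median was 20493.5 bp to a C59 Smc3 summit and 11030.5 bp to a WT one, with fewer Smc3 peaks in C59. At 841 sites (2.64%) an Smc3 summit lay within 1 kb without its peak touching the CTCF peak. Stronger peaks without Smc3 had a median distance of 9348 bp, and weak WT-only peaks without Smc3 one of 10161 bp. The longest distances were 1572929 bp near Gm3476 on chromosome 14, 1517243 bp near Edil3 on chromosome 13 and 1487121 bp near Pom121l12 on chromosome 11.

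Other CTCF sites stood at a distance within the range of the other sets. The next WT CTCF summit was a median of 4590 bp away, and within 5 kb at 52.7% of sites (52.1 to 53.2). The median was 3970 bp for stronger peaks without Smc3, 4308 bp for strong peaks with Smc3 and 4323 bp for weak WT-only peaks without Smc3. It was 5239.5 bp for weak shared and 2859 bp for weak WT-only peaks with Smc3. The next summit belonged to another weaker shared site without Smc3 in 35.3% of cases. It belonged to a strong shared peak with Smc3 in 29.7% and to a weak WT-only peak without Smc3 in 19.2%. Of all 96324 autosomal WT CTCF peaks, these sets held 31802 (33.0%), 30271 and 18293 in that order. Within 50 kb a site had a median of 2 others of its kind, and 17.1% had 0. The most crowded stood inside genes, nearest to the ends of Acot8, a peroxisomal thioesterase gene, with 17 others, and of Akr1a1, an aldo-keto reductase gene, and Hnrnpc, an RNA-binding protein gene, with 16 each. Folds there were 5.53, 12.4 and 8.02 in C59 and 7.48, 15.8 and 11.7 in WT for Acot8, Akr1a1 and Hnrnpc.

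Chromosome 8 held the fewest of these sites for its number of peaks. There 23.9% of WT CTCF peaks (22.8 to 25.1) were weaker shared sites without Smc3, while 16 other autosomes ranged from 31.1% to 35.1%. Chromosomes 1 (38.1%) and 11 (35.7%) lay above that range. The background that pileup and fold imply at the sites also differed on these chromosomes, in 1 line or in both. On chromosome 8 its median was 3.57 in C59 and 6.74 in WT, on chromosome 1 5.01 and 4.78, on chromosome 11 5.38 and 5.80, and on the 16 others 3.57 to 3.75 in C59 and 4.43 to 4.85 in WT. The part of the raised background in these shares was not tested. A C59 CTCF peak overlapped 52.8% of weak peaks on chromosome 8, 80.4% on chromosome 1 and 72.7% on chromosome 11. On the 16 others that share was 65.9% to 71.4%. Once a weak peak was shared, the share without Smc3 was 75.5% on chromosome 8, 73.1% on chromosome 1 and 77.5% on chromosome 11, against 69.2% to 76.0% on the 16 others.

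At the top of the set, 12 sites shared the highest WT fold of 19.0. Of the 5 named, those nearest to Cdh10, a cadherin gene, Lox, the lysyl oxidase gene, and Fcnb lay outside genes, and those nearest to Ltbp1, a TGF-beta binding protein gene, and to Nup188, a nuclear pore gene, lay inside genes. Their folds were 14.0, 14.3, 19.4, 13.1 and 14.4 in C59 for Cdh10, Lox, Fcnb, Ltbp1 and Nup188. The site at Cdh10 lay on chromosome 15 from 18219773 to 18220486, 598777 bp from the nearest gene end. The site at Fcnb lay on chromosome 2 from 28103600 to 28104231. At the bottom, the lowest WT folds were near Gpr20 (3.71 in C59 and 2.1 in WT), Sox2 (5.62 and 2.11) and Mas1 (7.17 and 2.13). The Sox2 site, whose nearest gene encodes a core pluripotency factor, lay on chromosome 3 from 34744202 to 34744473, 91892 bp from that gene.

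Over all protein-coding genes, 14.3% of 20665 on the numbered autosomes had such a site within 1 kb of an end, and 39.7% had any WT CTCF peak there. Of the 2955 genes with one, 15.5% also had a CTCF peak with Smc3 at an end. The share of all genes with a CTCF peak with Smc3 there is not given here, so 15.5% cannot be called high or low. Of 226 autosomal genes in 10 lists, 38 had a weaker shared site without Smc3, or 16.8%. At all 38 the C59 summit lay inside the WT peak. An Smc3 summit lay within 1 kb of 9 of them without its peak touching the CTCF peak.

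Genes of pluripotency had such a site at 5 of 21, and 12 had any WT CTCF peak. Utf1, an embryonic chromatin factor, led with a pileup of 59.6 in C59 and 77 in WT and folds of 11.0 and 11.5. Dppa3, a maternal factor that protects DNA methylation, had folds of 8.22 in C59 and 8.45 in WT. Nanog, a core pluripotency factor, had 6.96 in C59 and 7.87 in WT, with an Smc3 summit 779 bp from the site. Klf5 and Lefty1 completed the count, with 5.82 and 6.73 in C59 and 7.74 and 6.91 in WT for Klf5 and Lefty1. The Klf5 site also had an Smc3 summit nearby, 718 bp away.

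Among 18 genes of CTCF and the cohesin machinery, 2 had such a site. Yy1, a zinc finger factor of promoter and enhancer contacts, had folds of 4.54 in C59 and 6.49 in WT, and Ctcf itself, on chromosome 8, had 4.87 and 5.69. Of 22 Polycomb and DNA methylation genes 3 had one. They were Cbx7, a Polycomb chromodomain gene (9.16 in C59 and 10.5 in WT), the DNA methyltransferase gene Dnmt3b (4.74 and 5.86) and the dioxygenase gene Tet3 (4.43 and 5.42). Of 21 chromatin remodelling genes 3 had one, at Brd9 (4.54 in C59 and 7.22 in WT), Chd7 (5.91 and 6.17) and Smarcd1 (6.12 and 5.39).

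Signalling genes had such a site at 7 of 31. The highest WT folds were at Bmp4, a TGF-beta family ligand (6.12 in C59 and 8.67 in WT), at Wnt8a, a Wnt ligand (3.53 and 7.04), and at Fgfr1, a growth factor receptor on chromosome 8 (4.60 and 5.86). Genes of axon guidance and synapse had one at 6 of 25, led by Cdh4, a cadherin (9.28 in C59 and 12.3 in WT), the netrin receptor gene Unc5b (4.64 and 8.36) and the guidance ligand gene Slit3 on chromosome 11 (5.61 and 6.73). Slit3 and Unc5b each had their summit within 1 kb of an annotated start, and an Smc3 summit lay 704 bp from the Unc5b site.

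Of 22 cell cycle and p53 genes 4 had such a site, Cdkn2a, Ccnd2, a cyclin gene (7.59 in C59 and 7.77 in WT), Cdk4, a cell cycle kinase gene (6.10 and 7.15), and Mycl (4.81 and 3.80). The Mycl site had an Smc3 summit 668 bp away. Of 28 ribosomal protein genes 5 had a weaker shared site without Smc3, and 20 had any WT CTCF peak. Rpl37 had a fold of 10.8 in C59 and 9.18 in WT. Rps24 had 2.53 in C59 and 7.52 in WT, the lowest C59 fold of the 38, with an Smc3 summit 485 bp away.

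Of 20 mesoderm and endoderm genes 2 had such a site, Foxa1, a pioneer factor of endoderm (13.5 in C59 and 16.5 in WT), and Mixl1, a homeobox gene of the primitive streak (4.81 and 4.22). Neurog2, a proneural factor, was the single one of 18 neural genes (3.63 in C59 and 6.80 in WT). The share of genes with such a site ran from 5.56% for neural genes to 24.0% for axon guidance genes, around the 14.3% of all genes. These lists hold 18 to 31 genes each, so 1 gene moves a share by several percent, and nothing particular to a list can be read from them.

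**Figure D5:**
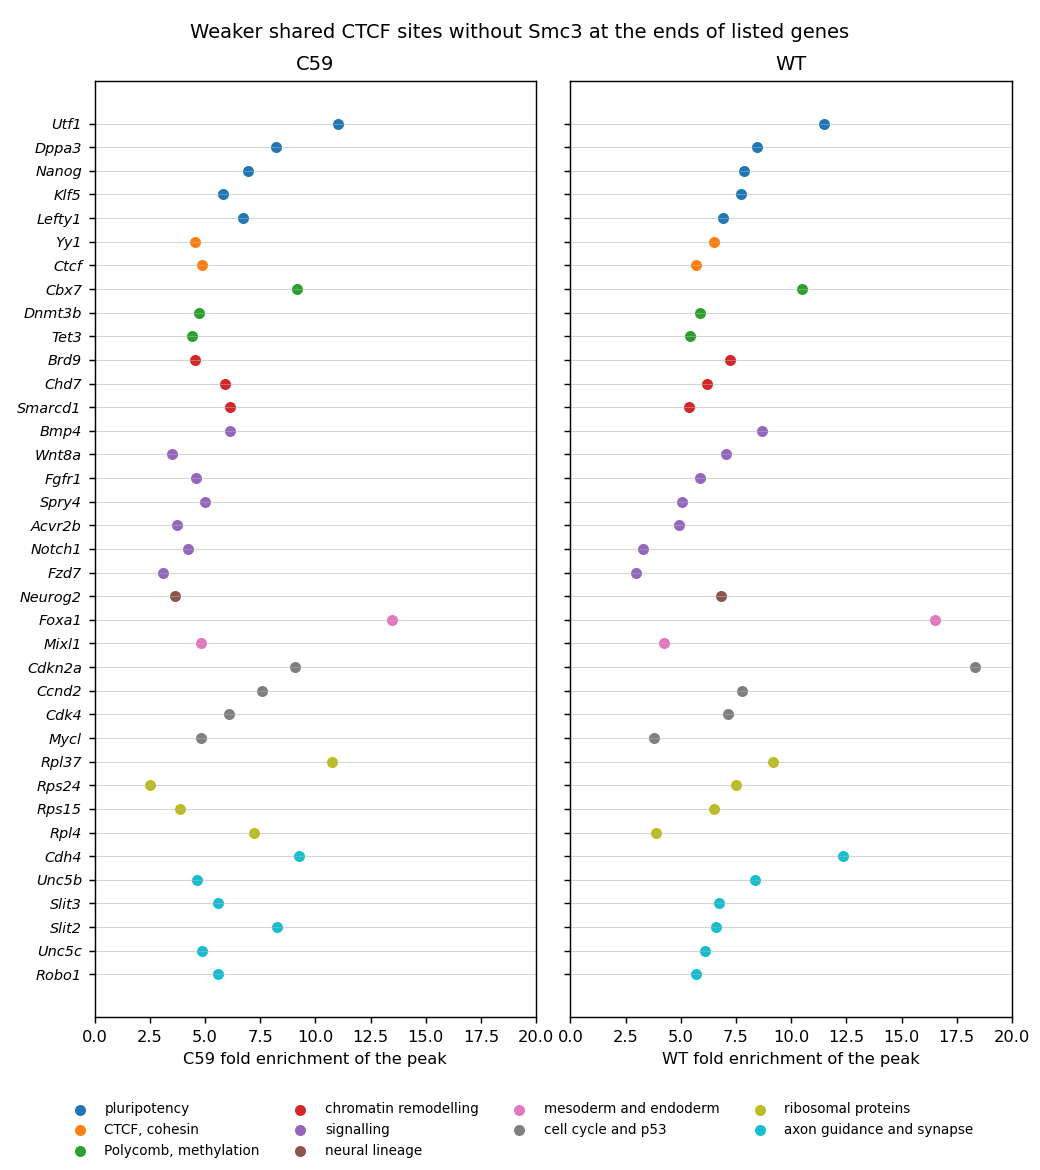
Fold enrichment of the strongest weaker shared CTCF site without Smc3 within 1 kb of an end of each of 37 listed genes, in C59 (left) and WT (right), with genes down the page and colours for the 10 lists. C59 folds run from 2.53 at Rps24 to 13.5 at Foxa1 and WT folds from 2.96 at Fzd7 to 18.3 at Cdkn2a.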

How the data were processed

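ChIP-seq peak lists of CTCF and Smc3 in C59 and WT cells were analysed. Per the submitters' processing notes, which give no role or order, mm10, MACS2 2.1.0.20140616 and Bowtie 0.12.8 were used, and deepTools 2.4.1, FastQC 0.10.1 and CASAVA are named too. The control library, threshold and pooling behind the peaks are not given in the sources used here. The pileup signal, the fold enrichment (a ratio to local background), and the linear p-value and q-value are the authors' deposited values. The extraction protocol names an antibody against Rad21, whereas the antibody label of those libraries names Smc3, which was followed.

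Overlaps, distances, shares and medians were computed with pandas 2.3.3, scipy 1.17.1 and numpy 2.4.6 under Python 3.11.15, tested on simulated data, and drawn with matplotlib 3.10.9. Background was pileup plus 1, divided by fold, minus 1. Genes and promoter windows came from RefSeq tables of GRCm38.p6, which has the chromosomes of mm10. All 233 listed symbols matched. The values of 1 listed gene are not reported here, although it is in the counts. Windows of chromosome 18 were not used here. Gene positions carry no strand, so either end counted.

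The sites and gene lists were chosen with earlier results of these data known. Named sites are those with the highest or lowest fold, the longest distance to Smc3, the most neighbours or a pileup at the threshold, with ties ordered by q, chromosome and position. Crowded sites were taken at least 50 kb apart. Genes are the 12 of highest WT fold by promoter window and up to 3 per list. Genes beyond 3 per list, named to complete a count, the sequence stretches and the C59 summit rule were chosen after the values were seen. The rule for named sequences allowed up to 6 windows, and 3 are shown. Alternatives covered pileup threshold, overlap, Smc3 rule, q, chromosomes, gene window and motif.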

Additional observations from a re-analysis of the deposited data

How the results depend on the processing

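The number of sites stayed within 1.5 times the 31802 reported under every alternative to the rule, from 25257 without chromosomes 1, 8 and 11 to 32992 at a pileup threshold of 120. The share of weak shared peaks without Smc3, 73.1%, was 78.8% at a threshold of 80, 68.4% at 120, 71.2% when an Smc3 summit within 1 kb also counted, 72.0% at a −log10 q of at least 5 in both CTCF lists, and 72.6% without chromosomes 1, 8 and 11. The share at gene ends, 8.89%, was 8.57% when the C59 overlap had to cover 50% of both peaks, 5.35% with a window of 500 bp and 17.3% with one of 2500 bp. The median distance to Smc3, 10911.5 bp, was 11147 bp with the 50% overlap, 11346 bp when Smc3 summits within 1 kb were barred, and 11119 bp without chromosomes 1, 8 and 11. The share of promoter windows with the core, 23.3%, was 13.5% with G as the base after AG and 50.9% for AGGNGGC alone. Over all autosomal windows the shares for these 3 forms were 10.1%, 4.22% and 33.9% in that order. The remaining values, among them those for absence from the WT Smc3 list alone and for a C59 summit inside the WT peak (an alternative chosen after seeing the data), stayed inside the 95% interval of the value reported. No paired analysis was possible because each line has 1 library per protein. A peak's absence depends on the depth of its library, which the lists do not give.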

Other observations

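A start of a long non-coding RNA (lncRNA) gene lay within 1 kb, and no protein-coding start did, at 1.25% of the weaker shared sites without Smc3 (1.13 to 1.38). The shares were 1.65% (1.23 to 2.17) for stronger shared peaks without Smc3, 1.28% (1.08 to 1.51) for weak shared peaks with Smc3 and 1.43% (1.26 to 1.62) for weak WT-only peaks without Smc3, with intervals that overlapped that of the weaker shared sites. For strong shared peaks with Smc3 the share was 1.90% (1.75 to 2.07), and the intervals did not overlap. For weak WT-only peaks with Smc3 it was 2.06% (1.30 to 3.11), with overlapping intervals. The share at the weaker shared sites without Smc3 was thus the lowest of all sets.

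At the same pileup, up to 59, weak WT-only peaks without Smc3 lay at starts at shares above those of the weaker shared sites. From 13 to 19 the shares were 7.59% of shared peaks (5.72 to 9.84) and 8.67% of WT-only peaks (7.74 to 9.67). From 20 to 29 a protein-coding start lay within 1 kb of 5.88% of shared peaks (5.31 to 6.48) and 6.47% of WT-only peaks (6.01 to 6.95). From 30 to 39 the shares were 5.80% (5.28 to 6.35) and 6.41% (5.55 to 7.34), and from 40 to 49 they were 5.89% (5.29 to 6.53) and 8.77% of 616 peaks (6.65 to 11.3). The intervals overlapped in the first 3 of these ranges and did not from 40 to 49. From 50 to 59 they overlapped again, at 6.32% (5.57 to 7.12) and 8.33% of 120 WT-only peaks (4.07 to 14.8). Higher ranges held too few WT-only peaks to compare, with 15 from 60 to 69.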
